A study of Mus musculus with 5 samples.

Results

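The genes described here are the 10 inhibitors and activators that govern the first step of the cell cycle: the Cip/Kip inhibitor genes Cdkn1a, Cdkn1b and Cdkn1c, the Ink4 inhibitor genes Cdkn2a, Cdkn2b, Cdkn2c and Cdkn2d, and the D cyclin genes Ccnd1, Ccnd2 and Ccnd3. They were chosen by name from 22180 genes measured on 1-colour Affymetrix arrays. Where a gene had several probe sets paired with its symbol alone, the brightest by its mean over all arrays was to be kept, but each of the 10 genes had a single such probe set, so brightness, the measured value in the rule, was not needed for them. The arrays carried RNA from bone marrow cells of C57BL/6-background mice, which had been depleted of CD45+ leukocytes and then selected for the erythroid antigen Ter119. The WT group (2 arrays) was Polgtm1Lrsn wt/wt and the Polg mutant group (3 arrays) was Polgtm1Lrsn mt/mt, a homozygous allele of the mitochondrial DNA polymerase that lacks proofreading and so lets mutations build up in mitochondrial DNA. All 5 samples shared a mating in which both parents were Atg7 flox/flox and PolG wt/mt and the father was Epo-cre ki/wt. By that mating every offspring would inherit floxed Atg7, an autophagy gene, from both parents. The labels do not say which of them inherited the Cre. The design text says that the mice were phlebotomized, the labels give no treatment, and the series title speaks of aged mice without an age for either group.

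D cyclins bind the kinases CDK4 and CDK6, which phosphorylate the retinoblastoma protein and release E2F transcription factors that turn on genes of DNA replication. Ink4 proteins bind CDK4 and CDK6 and keep them from the D cyclins, while Cip/Kip proteins block CDK2 complexes and can also help D cyclin complexes to assemble. Erythroblasts divide a limited number of times before they leave the cell cycle and lose the nucleus, and cyclin D3 is known to set the number of those divisions in mice. The question was which of these closely related genes differed between the erythroid cells of WT and Polg mutant mice.

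In 4 of the 10 genes the genotypes did not overlap. Cdkn1a, which encodes p21, was 7.93-fold higher in the Polg mutant and Ccnd2, which encodes cyclin D2, was 3.34-fold higher. Cdkn2c and Cdkn2d, which encode the Ink4 proteins p18 and p19, were 1.68-fold and 1.77-fold lower. The other Cip/Kip genes, the other Ink4 genes and the other D cyclins overlapped between genotypes, with log2 differences from -0.14 (Ccnd3) to 0.17 (Cdkn1c). Groups that did not overlap were found in 8.36% of all genes tested with the Polg mutant higher and in 9.73% with it lower, against 2 of the 10 members each way. With a single WT array left more genes separate. Without WT replicate 1, 5 members were higher and 2 lower, against 22.2% and 28.1% of all genes. Without WT replicate 2, 3 members were higher and 4 lower, against 23% and 20.8%. After quantile normalization 4 members were higher, against 20.5% of all genes, and after median centring 3, against 19%. None of the 10 passed limma's test at an adjusted p under 0.05 over all genes, which called 0 genes (0% of those tested; 1781 without WT replicate 1 and 924 without WT replicate 2, with 0 members in either). By the same test 4 of the 10 had an unadjusted p under 0.05, against 9.51% of all genes. The shares of all genes given here and below take in dim genes and genes with values shared between arrays. In the fit to genes without such shared values, which kept these 4, 1536 of 7112 genes had an unadjusted p under 0.05. When genes also had to be above 6 on 2 arrays, 1557 of 4322 had one. Because the 10 genes were proposed with results of these data known, these counts are a description and were not tested against other genes. In bulk samples such as these, fewer cells of a type and less RNA per cell cannot be told apart.

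**Figure D1:**
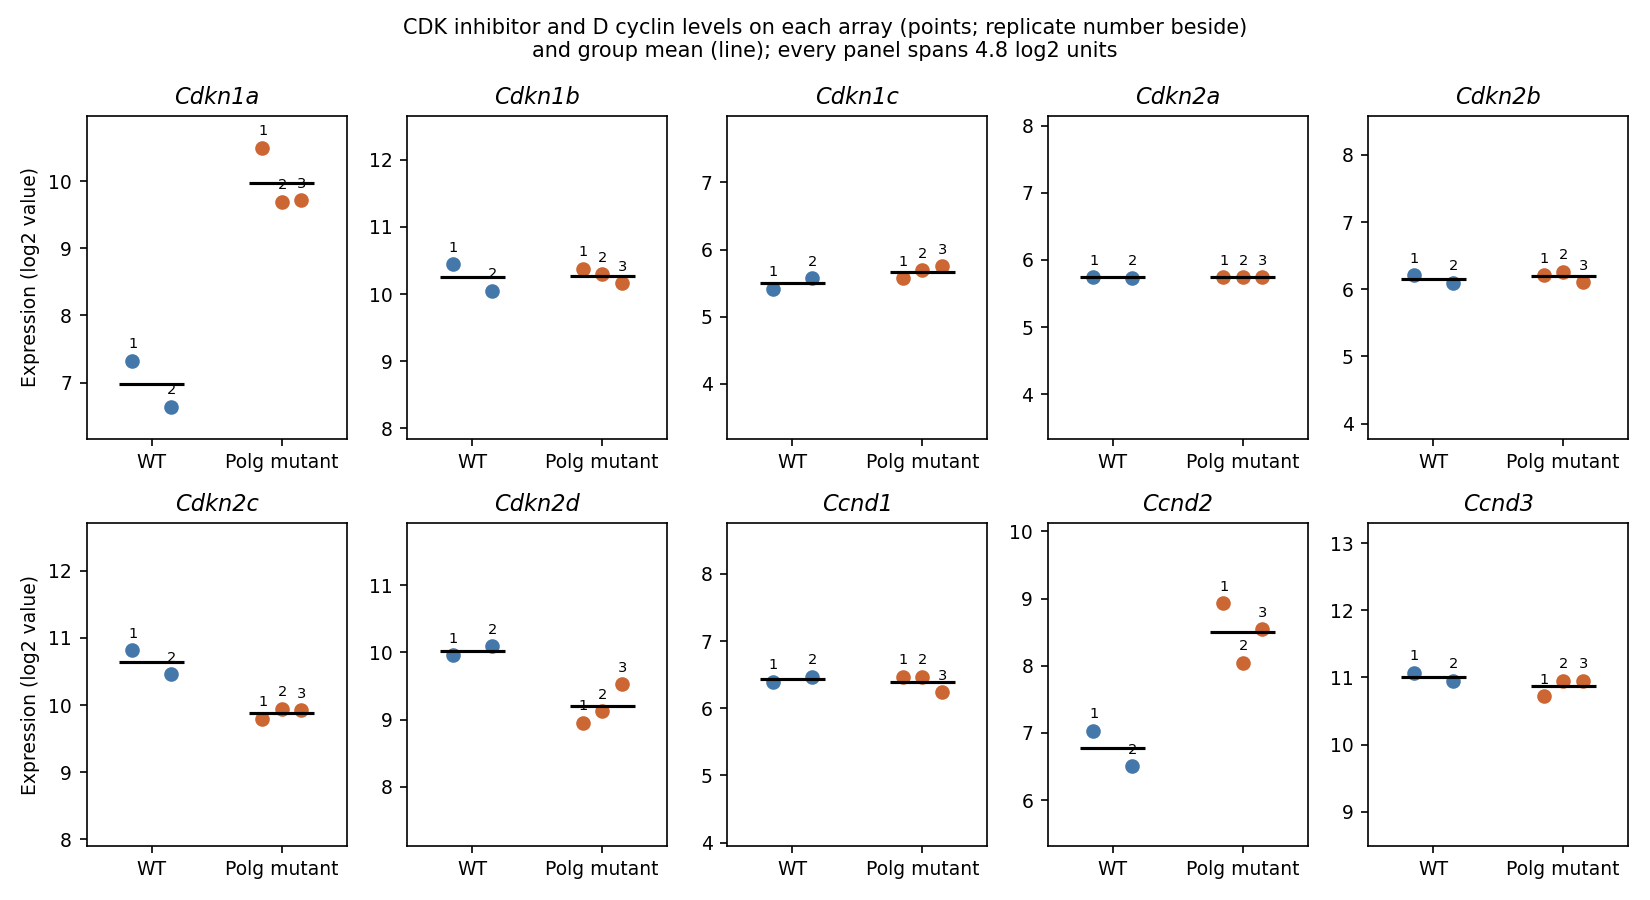
Log2 expression value of each of the 10 genes (vertical axis, 1 panel a gene, each spanning the same number of log2 units around its own level) on the 2 WT and 3 Polg mutant arrays, with replicate numbers beside the points and a line at each group mean. Cdkn1a and Ccnd2 are higher and Cdkn2c and Cdkn2d lower on every Polg mutant array, while the other 6 genes overlap between genotypes. Heights cannot be compared between panels, since probe sets differ in how strongly they bind.

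Of the erythroid markers, Slc4a1, the band 3 anion exchanger, read 13.37 to 13.58 on the 5 arrays. The erythroid transcription factor gene Klf1 read 10.92 to 11.18. Both were lower on every Polg mutant array, each with a log2 difference of -0.13, in a list that ran from -0.65 to -0.10. Levels of different probe sets cannot be compared, so these readings give no measure of purity. Array medians were 5.10 to 5.13. The marker list of neutrophils, a CD45+ cell type that the depletion should remove, had mean log2 levels of 7.92 and 6.90 in WT, against 8.27, 8.76 and 7.11 in the mutant, so it was low on WT replicate 2 and Polg mutant replicate 3 and higher on the other arrays. Polg itself read 6.97 on all 5 arrays. The mutant allele changes the protein, so this level does not check the labels. In many genes some arrays shared exactly the same value (67.9% of the genes tested and 5 of the 10 members), which lowers the spread seen in those genes. Members without ties did not all gain from this. In the fit to genes without ties the SE was smaller for Cdkn1a (0.318 against 0.383), Ccnd2 (0.291 against 0.347) and Cdkn2d (0.192 against 0.203). It was larger for Cdkn2c (0.151 against 0.133) and Cdkn1b (0.162 against 0.153). Signal over background was not given, so no low level here is known to lie above background. That holds for the WT levels of Cdkn1a and Ccnd2 too.

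Cdkn1a encodes p21, the inhibitor through which p53 and several stress pathways halt the cell cycle. It read 7.33 and 6.64 on the WT arrays and 10.50, 9.69 and 9.72 on the Polg mutant arrays. The lowest Polg mutant array was 2.37 log2 units above the higher WT array, a gap wider than the spread within either group (0.69 in WT and 0.80 in the Polg mutant). The mean difference was 2.99 ± 0.38 (SE, limma; 2 WT and 3 Polg mutant arrays), with a 95% interval from 1.89 to 4.08, an unadjusted p of 0.00194 and an adjusted p of 0.224 over all genes. Over all genes tested, 0.032% had a larger difference in either direction. An exact permutation test of this gene gave p = 0.1, which is the smallest that 10 splits of 5 arrays allow, so no single gene could reach 0.05 by it. Leaving out each array in turn gave differences of 2.64 to 3.33, and limma's adjusted p over all alternatives ran from 0.0121 to 0.542. In the fit to genes without ties the adjusted p of Cdkn1a was 0.0224, but that filter depends on the values being tested.

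RefSeq lists 2 starts for Cdkn1a in GRCm38.p6, and the 250 bases before each are shown because Cdkn1a is the member with the largest difference and because the upstream window holds a match to the p53 site. Capitals mark that match in the first line and GGGCGG in the second.

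Cdkn1a upstream start, chr17:29090729-29090978, plus strand: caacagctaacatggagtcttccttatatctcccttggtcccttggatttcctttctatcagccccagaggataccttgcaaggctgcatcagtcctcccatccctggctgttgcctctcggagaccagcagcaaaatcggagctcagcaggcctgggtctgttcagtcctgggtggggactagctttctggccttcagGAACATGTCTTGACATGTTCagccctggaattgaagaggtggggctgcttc
Cdkn1a downstream start, chr17:29093519-29093768, plus strand: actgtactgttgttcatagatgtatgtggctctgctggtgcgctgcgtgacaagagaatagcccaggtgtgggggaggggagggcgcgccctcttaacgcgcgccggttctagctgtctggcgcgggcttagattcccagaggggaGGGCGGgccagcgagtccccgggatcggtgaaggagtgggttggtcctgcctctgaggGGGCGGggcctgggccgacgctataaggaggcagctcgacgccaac

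The site was searched as a pair of the 10-base consensus motifs of p53 with no spacer, with at most 2 mismatches in 20 bases and none at the central C and G of either motif. The match, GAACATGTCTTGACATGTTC at chr17:29090928-29090947, begins 51 bases before the upstream start and has 1 mismatch. Such a match was found in 0.271% of 32851 RefSeq windows of this length and in no other window of the members, of which 7 of 10 have an entry in the table. A single 10-base motif without mismatch was present in 7.13% of windows. Among the members it was found in the upstream Cdkn1a window (2 copies) and in that of Cdkn2d (1 copy), a gene lower in the Polg mutant. A match is a description of the letters and does not show that p53 was bound or active in these cells. Trp53 itself had no probe set paired with its symbol alone and was not analysed here.

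Cdkn1b, which encodes p27, the inhibitor that accumulates as erythroblasts stop dividing, had WT values of 10.45 and 10.05 and Polg mutant values of 10.38, 10.29 and 10.16. All Polg mutant values lay between the WT values. Its difference was 0.03 ± 0.15 (SE, limma adjusted p = 0.982), with a 95% interval from -0.41 to 0.47, and it changed sign without WT replicate 2 (-0.17) and without Polg mutant replicate 1 (-0.02). Cdkn1c, which encodes p57, read 5.42 and 5.57 in WT, while the Polg mutant arrays gave 5.57, 5.69 and 5.75. The groups touched, since WT replicate 2 and Polg mutant replicate 1 held the same value. Its difference was 0.17 ± 0.08 (SE, limma adjusted p = 0.638), with an interval from -0.06 to 0.41 and a range of 0.10 (without WT replicate 1) to 0.25 (without WT replicate 2) when 1 array was left out. The interval of Cdkn1a lay wholly above those of Cdkn1b and Cdkn1c.

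Among the Ink4 genes, Cdkn2c encodes p18, which restrains CDK4 and CDK6 in many dividing blood cells. It read 10.82 and 10.46 on the WT arrays, against 9.79, 9.95 and 9.92 on the Polg mutant arrays. The Polg mutant arrays lay within 0.15 log2 units of each other, and the highest was 0.51 below the lower WT array. The difference was -0.75 ± 0.13 (SE), with an interval from -1.13 to -0.37, an unadjusted p of 0.00602 and a limma adjusted p of 0.265. It ran from -0.93 to -0.57 when 1 array was left out.

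Cdkn2d encodes p19 of the Ink4 family, not to be confused with the p19 that Cdkn2a encodes. It had WT values of 9.96 and 10.09 and Polg mutant values of 8.95, 9.13 and 9.53. The Polg mutant arrays were spread over 0.58 log2 units, with replicate 3 nearest to WT, and the gap to the lower WT array was 0.43. The difference was -0.82 ± 0.20 (SE), with an interval from -1.40 to -0.24, an unadjusted p of 0.0179 and a limma adjusted p of 0.352. Without 1 array it was -0.98 to -0.70. Over all genes tested, 1.80% had a larger difference than Cdkn2c in either direction and 1.47% a larger one than Cdkn2d.

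The windows before the first RefSeq start of Cdkn2c and the single start of Cdkn2d are shown because both genes were lower on every Polg mutant array. Capitals mark GGGCGG, the core that Sp1-type zinc finger proteins bind, on either strand.

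Cdkn2c, chr4:109666757-109667006, minus strand: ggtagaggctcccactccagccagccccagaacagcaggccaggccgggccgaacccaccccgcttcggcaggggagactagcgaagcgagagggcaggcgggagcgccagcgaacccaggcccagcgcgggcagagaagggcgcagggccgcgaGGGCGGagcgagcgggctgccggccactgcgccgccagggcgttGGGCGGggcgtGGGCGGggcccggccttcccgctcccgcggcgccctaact
Cdkn2d, chr9:21291210-21291459, minus strand: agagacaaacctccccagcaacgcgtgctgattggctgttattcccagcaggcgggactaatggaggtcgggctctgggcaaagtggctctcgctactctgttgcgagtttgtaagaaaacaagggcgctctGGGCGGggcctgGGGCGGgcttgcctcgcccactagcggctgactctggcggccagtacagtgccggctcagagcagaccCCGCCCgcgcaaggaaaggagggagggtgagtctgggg

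Each window held 3 copies of GGGCGG, a motif with at least 1 copy in 32.7% of all windows. It was also present before both Ccnd3 starts, the Cdkn1b start and the first Cdkn2a start, genes whose groups overlapped. The downstream start of Cdkn1a, which was higher in the Polg mutant, had 2 copies. The second Cdkn2c start, not shown, had 0. The E-box CACGTG, the GATA motif AGATAA, the E2F motif TTTGGCGC and the ATF4 motif TGATGNAA were searched on both strands too. They were not found in the 250 bases before any start of the 7 members with an entry. Ccnd1, Ccnd2 and Cdkn1c had no entry, so no window of theirs was searched for any motif. The E2F motif TTTCCCGC was found once, before the first Cdkn2a start, and TTTGAA, a motif of cell cycle genes, once, before Cdkn2b. These motifs were present in 6.02% (CACGTG), 9.99% (AGATAA), 0.417% (TTTGGCGC), 3.45% (TGATGNAA), 0.895% (TTTCCCGC) and 16.0% (TTTGAA) of all windows.

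Cdkn2a encodes both the Ink4 protein p16 and the p53 activator p19ARF from overlapping exons, and its single probe set does not tell their transcripts apart. It read 5.74 on all 5 arrays, with the same deposited value on 4 of them. Its difference was 0.00 ± 0.02 (SE, limma adjusted p = 1), an error computed from mostly tied values that says little about precision. Cdkn2b, which encodes p15, read 6.21 and 6.09 in WT, while the Polg mutant arrays gave 6.21, 6.26 and 6.11. Its difference was 0.04 ± 0.07 (SE, limma adjusted p = 0.813), and the groups overlapped. Without WT replicate 2 it was -0.02. Whether the levels of Cdkn2a and Cdkn2b lay above background was not known, so a change below that level could not have been seen.

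Of the D cyclins, Ccnd2, which encodes a cyclin induced by growth factor signals in many blood cells, read 7.03 and 6.51 on the WT arrays, against 8.93, 8.04 and 8.55 on the Polg mutant arrays. Every Polg mutant array was at least 1.01 log2 units above the higher WT array, with replicate 1 highest and replicate 2 lowest. The difference was 1.74 ± 0.35 (SE), with an interval from 0.75 to 2.73, an unadjusted p of 0.00889 and a limma adjusted p of 0.283. Without 1 array it was 1.48 to 2.0, and 0.153% of all genes differed by more in either direction.

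Ccnd3, which encodes the cyclin tied to the number of erythroblast divisions, had WT values of 11.07 and 10.95 and Polg mutant values of 10.72, 10.95 and 10.95. Polg mutant replicates 2 and 3 were level with WT replicate 2, and replicate 1 was lowest. Its difference was -0.14 ± 0.10 (SE, limma adjusted p = 0.638), with an interval from -0.42 to 0.15, and ran from -0.20 to -0.06 without 1 array, with -0.06 without Polg mutant replicate 1 and -0.08 without WT replicate 1. Ccnd1 read 6.40 and 6.47 in WT, while the Polg mutant arrays gave 6.47, 6.47 and 6.24, a difference of -0.04 ± 0.09 (SE, limma adjusted p = 0.873) between overlapping groups, from a level not known to be above background, and of 0.04 without Polg mutant replicate 3. The interval of Ccnd2 lay wholly above those of Ccnd1 and Ccnd3.

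**Figure D2:**
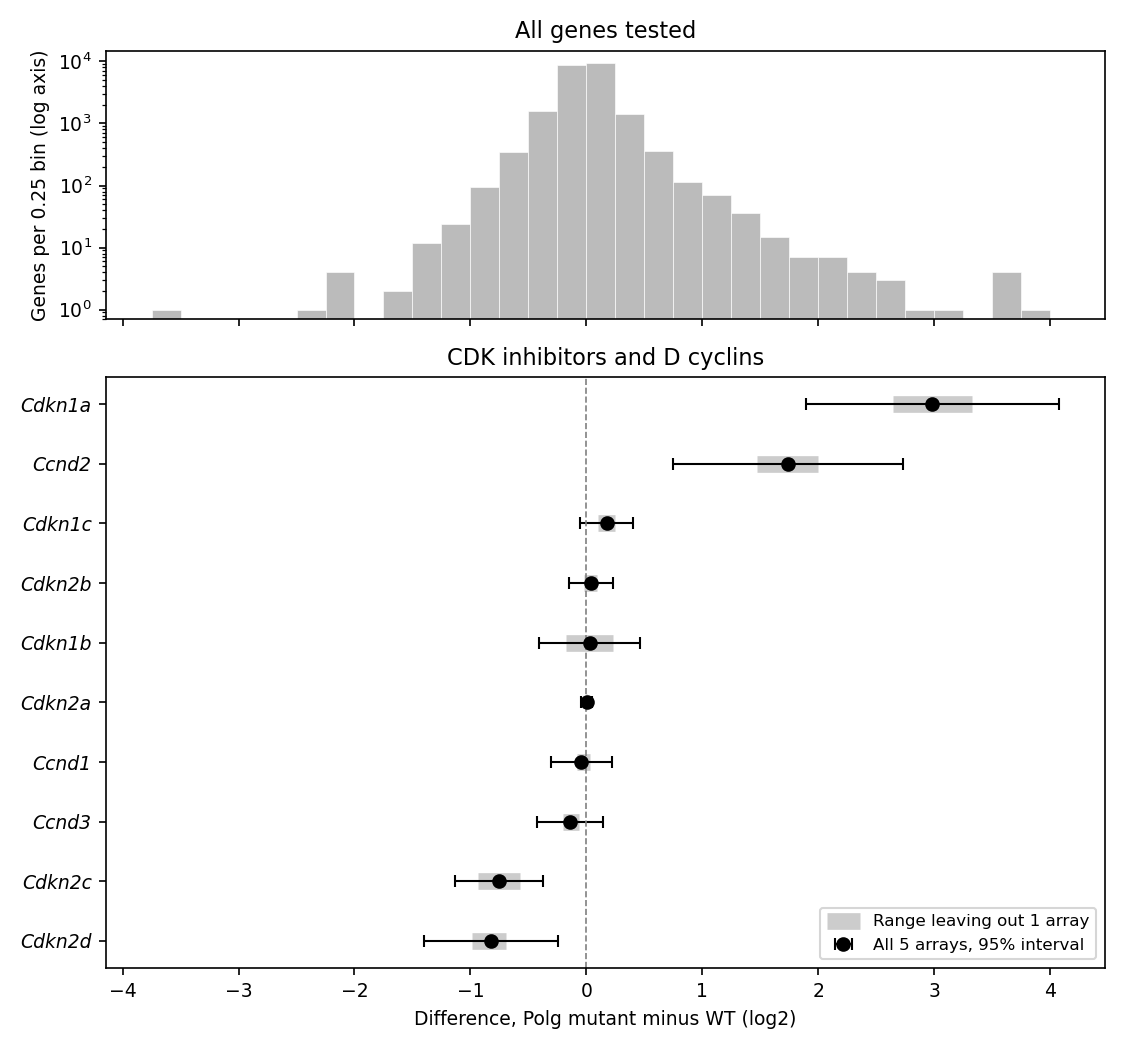
Lower panel, log2 difference (Polg mutant minus WT) of each gene with limma's 95% interval (points and bars) and the range of differences when 1 array is left out (grey). Upper panel, number of genes per bin of that difference over all 22180 genes tested, on a log axis. Cdkn1a (2.99) and Ccnd2 (1.74) lie in the upper tail, Cdkn2c (-0.75) and Cdkn2d (-0.82) in the lower, and the intervals of the other 6 genes include 0.

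Differences within each family were tested directly, as the gap between a pair of genes on each array compared between genotypes by a two-sided exact permutation test over 12 pairs. The groups did not overlap in 8 pairs. Each of these pairs held a gene whose own groups did not overlap, so the count largely restates those genes. No share over all gene pairs was computed to set beside it. In the Polg mutant Cdkn1a gained 2.96 log2 units on Cdkn1b and 2.81 on Cdkn1c. Ccnd2 gained 1.88 on Ccnd3, and Ccnd1 changed by -1.78 against Ccnd2. The other 4 separated pairs set Cdkn2a or Cdkn2b against Cdkn2c or Cdkn2d. As Cdkn2a and Cdkn2b were not known to lie above background and hardly moved, these 4 pairs repeat the differences of Cdkn2c and Cdkn2d and show no difference within the family. The pairs with Cdkn1c and Ccnd1 carry the same limit. Of the 8 pairs, 7 had an exact permutation p of 0.1, the smallest possible, and Cdkn2b against Cdkn2d had 0.2. After Benjamini-Hochberg adjustment over the 12 pairs the exact permutation p was 0.171 for those at 0.1 and 0.300 for that at 0.2, so no pair passed, and the design could not have passed one. Cdkn2c and Cdkn2d differed by 0.07 in their change (exact permutation p = 0.8), Cdkn1b and Cdkn1c by -0.15 (0.6), Cdkn2a and Cdkn2b by -0.04 (0.6) and Ccnd1 and Ccnd3 by 0.10 (0.8).

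Genes with profiles most like the 4 members were found by the root mean square (RMS) distance between log2 values over the 5 arrays, each gene centred on its own mean. Nearest to Cdkn1a was C2cd4a, at a distance of 0.221, against an RMS size of 1.51 for the Cdkn1a profile itself. C2cd4a read 5.41 and 4.90 on the WT arrays, against 8.45, 7.32 and 7.90 on the Polg mutant arrays. Rbm12b2 followed at 0.374 and Cth, the cystathionine gamma-lyase gene of cysteine synthesis, at 0.378. Nearest to Ccnd2 (profile size 0.913) were Slc7a3, a cationic amino acid transporter gene, at 0.150, Cish, a feedback inhibitor gene of cytokine receptors that signal through STAT5, at 0.183, and Ddit4, a stress-induced inhibitor gene of mTORC1, at 0.191. Cish had WT values of 6.62 and 6.30 and Polg mutant values of 8.27, 7.89 and 8.13.

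Nearest to Cdkn2c (0.388) were Slc14a1, the red cell urea transporter gene, at 0.0410, Fam78a at 0.0457 and Slc25a21, a mitochondrial carrier gene, at 0.0474. Slc14a1 read 11.94 and 11.60 in WT, while the Polg mutant arrays gave 11.01, 11.18 and 11.09. Nearest to Cdkn2d (0.445) were Kmt2c, a histone methyltransferase gene, at 0.0637, Kifc5b, a kinesin gene, at 0.0726 and Brca2, a recombination repair gene, at 0.0788. Brca2 read 9.41 and 9.40 on the WT arrays, against 8.50, 8.52 and 8.94 on the Polg mutant arrays. These are the closest of the genes tested, small RNAs and provisional symbols left out, over only 5 arrays, and they carry no test.

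The list of cell cycle kinases, which also held the non-kinase genes Ccnh and Mnat1, had 7 of 7 genes measured. Its median difference was 0.00, the value of Ccnh, against a median of 0 over all genes. Cdk4, a partner of all D cyclins, differed by 0.15 ± 0.08 (SE, limma adjusted p = 0.638) and Cdk6 by 0.39 ± 0.27 between overlapping groups. Cdk4 had WT values of 9.58 and 9.81 and Polg mutant values of 9.89, 9.83 and 9.81, so that its groups were separated by 0.0086. Cdk1, the mitotic kinase, and Cdk2, the target of Cip/Kip proteins, differed by -0.39 and -0.35, and in both every Polg mutant array was below both WT arrays. Of the 7, only Cdk1 had an unadjusted limma p under 0.05 (0.0135, with an adjusted p of 0.323), against 9.51% of all genes.

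Of 17 genes of the retinoblastoma, E2F and DREAM groups, all measured, 10 were lower and 2 higher on each of the Polg mutant arrays. An unadjusted p under 0.05 was reached by 8, all lower. Their median difference was -0.16. Shares of all genes lower and higher on every array were 9.73% and 8.36%, and 5.33% were lower at an unadjusted p under 0.05. E2f4, a repressor E2F needed for erythroid development, read 11.64 and 11.53 in WT, while the Polg mutant arrays gave 10.96, 11.16 and 11.22, a difference of -0.47 ± 0.10 (SE, limma adjusted p = 0.303). Lin9, a subunit shared by the activating and repressing forms of the complex, differed by -0.51, and Tfdp2, an E2F partner, by -0.40. E2f2, which is needed for normal erythroid maturation, read 11.61 and 11.64 on the WT arrays, against 11.61, 11.51 and 11.59 on the Polg mutant arrays and overlapped. Rb1 differed by -0.13 ± 0.04 (limma adjusted p = 0.378) on its brightest probe set and by -0.01 ± 0.24 on the mean of its probe sets, so its difference depends on that choice. Of cyclins E, A and B, 3 of 5 were measured and all were lower on every Polg mutant array, with differences of -0.44 for Ccne1, -0.33 for Ccna2 and -0.24 for Ccnb2.

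**Figure D3:**
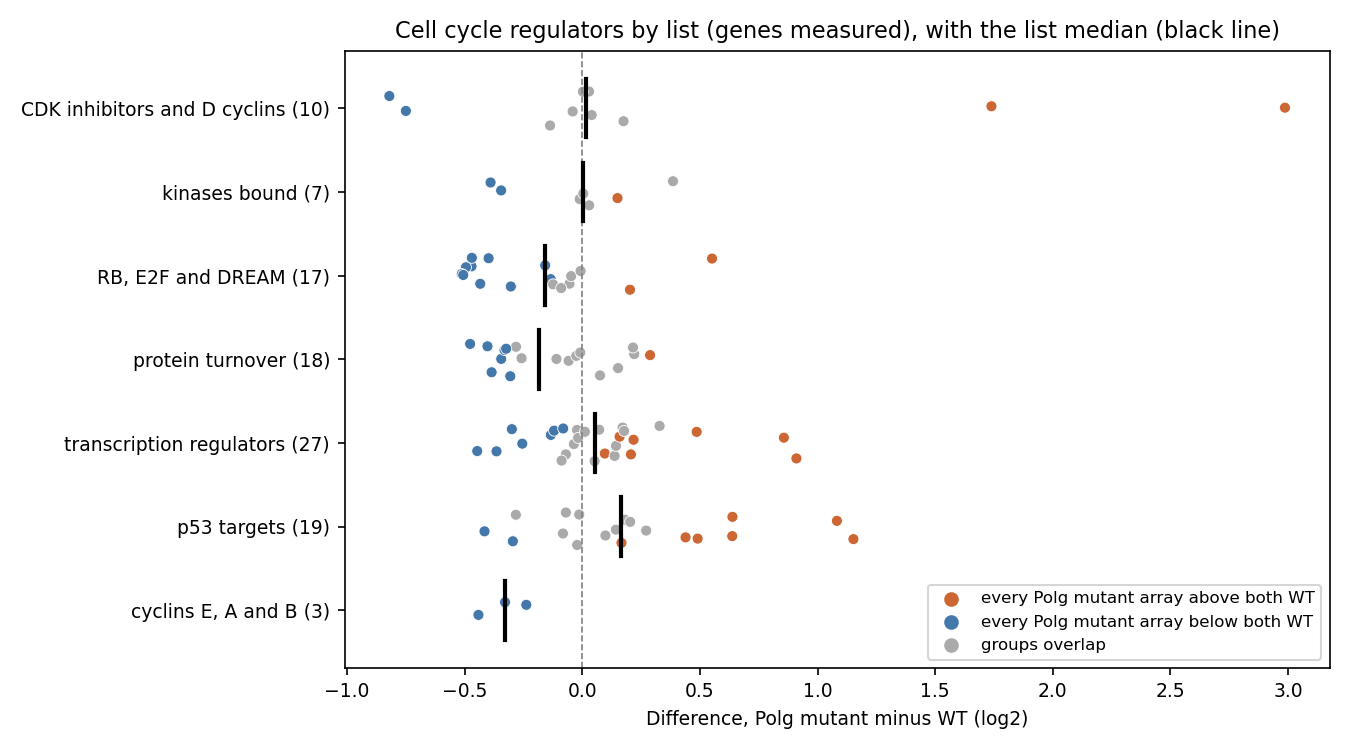
Log2 difference (Polg mutant minus WT) of each measured gene in the member set and in 6 pathway lists, 1 point a gene, coloured by whether the Polg mutant arrays all lay higher than WT, all lower, or overlapped, with a black line at the list median. The members split into 2 high, 2 low and 6 near 0, the RB, E2F and DREAM list lies mostly below 0 (median -0.16) and the p53 targets mostly above (0.17).

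Genes of the turnover of these proteins were measured for 18 of 19 names (median difference -0.18). Of these, 7 were lower and 1 higher on every Polg mutant array, against 9.73% and 8.36% of all genes. Skp2, which with Cks1b marks p27 and p21 for destruction, had WT values of 8.78 and 8.89 and Polg mutant values of 8.11, 8.56 and 8.40, a difference of -0.48 ± 0.16 (SE, limma adjusted p = 0.495). Cks1b differed by -0.31, and Rnf123 and Ubac1, subunits of a ligase that acts on p27, by -0.33 and -0.39. In this list 5 had an unadjusted limma p under 0.05, all lower, against 5.33% of all genes. After adjustment over all genes 0 passed the threshold.

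Of the transcription regulators of these genes 27 of 28 were measured, with a median of 0.05. On every Polg mutant array 7 were higher and 7 lower, against 8.36% and 9.73% of all genes. Myc, which represses Cdkn1a and induces Ccnd2 in other cells, read 8.01 and 7.83 in WT, while the Polg mutant arrays gave 9.18, 8.57 and 8.73, a difference of 0.91 ± 0.22 (SE, limma adjusted p = 0.341). Klf6, an activator of Cdkn1a in other cells, was higher by 0.86 and Sp1 lower, with a difference of -0.37. Foxo3, an activator of Cdkn1b with a role in erythroid maturation, differed by -0.30 ± 0.08 (limma adjusted p = 0.360). Bmi1, a Polycomb repressor of the Cdkn2a locus, read 4.17 to 4.54 and overlapped.

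Of 22 other p53 targets 19 were measured. Of these, 7 were higher and 2 lower throughout the Polg mutant arrays, against 8.36% and 9.73% of all genes. An unadjusted limma p under 0.05 was reached by 4, all higher, against 4.18% of all genes. The median was 0.17. Sesn2, a stress-induced inhibitor of mTORC1, was higher by 1.15 ± 0.31 (SE, limma adjusted p = 0.397), Zmat3 by 0.64 and the nuclease gene Aen by 0.49. Mdm2, the p53 ligase and a direct p53 target, read 8.42 and 8.21 in WT and 8.24 on all 3 Polg mutant arrays, a difference of -0.07 between overlapping groups that was 0.04 without WT replicate 1. The Cdkn1a difference of 2.99 was larger than that of any of these 19 genes, which ran from -0.42 to 1.15.

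Markers of other cells were set beside the 4 members. In the neutrophil list the groups overlapped for 16 of 16 genes, and its median difference was 0.63. The part of neutrophil content in the higher Cdkn1a and Ccnd2 was not tested. Macrophage marker means were 5.28 in both WT arrays and 5.22 to 5.42 in the Polg mutant, with 0 of 11 genes separated. Lymphocyte means were 5.45 and 5.10 against 4.94 to 5.29, with 2 of 12 genes separated, both lower. Megakaryocyte means were 6.43 and 7.04 against 6.22 to 6.49, with 1 of 7 genes separated, the platelet receptor gene Gp9, which was lower. Erythroid markers were lower on every Polg mutant array for 12 of 13 genes, with means of 12.09 and 11.92 against 11.68 to 11.76. Their differences ran from -0.65 to -0.10 with a median of -0.31, beside -0.75 for Cdkn2c and -0.82 for Cdkn2d. Over all genes 9.73% were lower and 8.36% higher on every Polg mutant array. The part of erythroid content in the lower Cdkn2c and Cdkn2d was not tested.

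**Figure D4:**
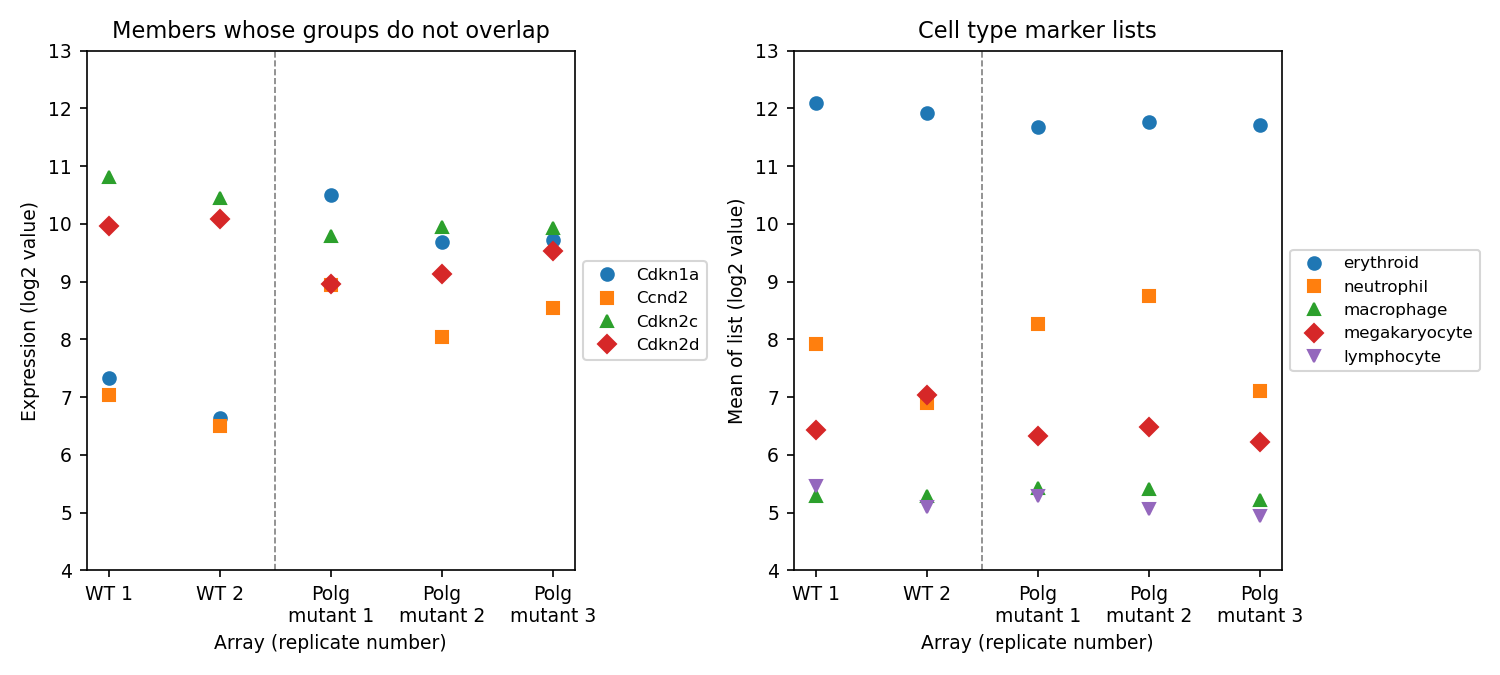
Left, log2 value of Cdkn1a, Ccnd2, Cdkn2c and Cdkn2d on each of the 5 arrays. Right, mean log2 value of 5 cell type marker lists on the same arrays, with WT left of the dashed line in both panels. The neutrophil list is lowest on WT replicate 2 (6.90) and Polg mutant replicate 3 (7.11), and Cdkn1a reads 6.64 and 9.72 on those arrays. The part of any marker list in the differences of the members was not tested.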

How the data were processed

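The deposited file holds log2 values of 41345 probe sets on each array. RMA and Partek 6.5 are named without a role in the submitters' processing notes. The probe annotation and build behind it are not stated in the labels. Its log2 values were used unchanged. The platform's annotation gave 1 symbol to 23521 probe sets, several to 1814 and none to 16010. Probe sets with 1 symbol were kept, the brightest per gene. The test was limma 3.58.1 (R 4.3.3), with genotype as the single term, moderated variance without trend, two-sided tests, Benjamini-Hochberg adjustment over all 22180 genes and a threshold of 0.05. The labels do not state separate animals per array, so p-values cover the spread between arrays, part of which may be technical. The number of arrays limits the precision. The fit was tested on simulated data. Members and lists were chosen with earlier results of these data known. Named genes were the members, the 3 genes of smallest p in each pathway list, 10 genes fixed by name, and the 3 genes nearest to each member that differed by at least 0.5; genes named outside this rule (Slc4a1, Klf1, Gp9, Polg) were chosen after their values were seen. Windows before gene starts came from RefSeq (GRCm38.p6).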

Additional observations from a re-analysis of the deposited data

How the results depend on the processing

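The 4 separated members kept their direction in each of the 16 alternatives. The sign turned for Ccnd1 with array weights (0.0062), with the replicate block (0.035) and without 1 array (-0.080 to 0.035), for Cdkn1b without 1 array (-0.17 to 0.23), for Cdkn2b (-0.017 to 0.096) and for Mdm2 (-0.18 to 0.037). Genes past the threshold went from 0 to 9 after quantile normalization and after centring on the brightest 25% of genes, 11 when only genes brighter than 6 on 2 or more arrays were kept, 114 with genes without ties, 5 without moderation and 487 with both filters, a choice added after the data were seen. Leaving out 1 array gave 0 to 1781, with 1781 without WT replicate 1 and 924 without WT replicate 2, fits in which the remaining WT array takes its spread from the other group. Of the members 0 passed in any fit without 1 Polg mutant array. Among genes without ties 1 of the 5 members tested passed (Cdkn1a), against 1.60% of 7112 genes. With both filters 4 of the 5 members tested passed, against 11.3% of 4322 genes. They were Cdkn1a, Cdkn2c, Cdkn2d and Ccnd2 (limma adjusted p from 0.0121 to 0.0456). These filters are not independent of the differences. Members higher on every Polg mutant array numbered 4 after quantile normalization, 3 after median centring and 2 to 5 without 1 array, with 5 without WT replicate 1; members lower numbered 2 to 4, with 4 without WT replicate 2. With the replicate block, 0 genes and 0 members passed, as without it. The numbers were not shown to pair the arrays, as deviations of same-numbered arrays correlated at 0.19 and -0.20. Of 583 values of the 37 other named genes, 553 kept direction and side of the threshold, 29 came to pass it and 1 turned. Signal over background was not known, which limits the low readings of Cdkn1c, Cdkn2a, Cdkn2b and Ccnd1. The WT readings of Cdkn1a (7.33 and 6.64) and Ccnd2 (7.03 and 6.51) were not known to lie above background either, so their fold differences carry this limit.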
